A study of Mus musculus with 2 samples.

Results

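The genes described are 7 that act in the transport and storage of fatty acids: the fatty acid binding proteins Fabp3, Fabp5 and Fabp7, the lipid droplet proteins Plin2, Plin3 and Cidea, and the lipase Lpl. They are 7 of the 12744 genes listed in the deposited files of both libraries. They were picked from a list of such genes by their pattern over cell classes, by the cells in which they had a UMI (unique molecular identifier, 1 counted transcript molecule) and by their ratio between the genotypes, and the opposite ratios of Cidea and Fabp3 in choroid plexus cells were part of that choice. Their levels and ratios are therefore a description, and no test was run on them. The data are 3' single-cell RNA sequencing of hippocampus from mice of 57 weeks: 1 library from GlaKO mice, in which the gene Gla for the lysosomal enzyme alpha-galactosidase A is disrupted (a model of Fabry disease), and 1 from littermates labelled wt. The labels name no treatment other than the anaesthesia with xylazine and ketamine that both groups received before perfusion. Sex, strain, the Gla allele and how many animals were used per library are not given. With 1 library per genotype every difference is one between 2 libraries, and each interval is a 95% interval for counting error only.

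Fatty acid binding proteins are small cytosolic carriers that bind long-chain fatty acids and hand them to membranes, enzymes and nuclear receptors. Fabp3 is the heart type, Fabp5 the epidermal type and Fabp7 the brain type, a textbook marker of radial glia and astrocytes. Surplus fatty acid is stored as triglyceride in lipid droplets, whose surface is coated by perilipins such as Plin2, which stays on the droplet, and Plin3, which moves between cytosol and droplet. Cidea promotes the fusion of small droplets to larger ones and is best known from brown fat. Lpl is the secreted lipase that frees fatty acids from circulating lipoproteins.

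RefSeq upstream windows on GRCm38.p6 were matched for 4 of the 7 genes: Fabp3, Fabp7, Plin2 and Plin3. The stretches shown here belong to the carrier that set choroid plexus cells apart (Fabp3), the carrier of precursors and astrocytes (Fabp7) and a droplet coat found in many classes (Plin2), so that the letters before these starts can be read beside the levels. Capitals mark matches to the motifs searched, and each stretch ends where an annotated untranslated region begins.
Fabp3 chr4:130308488-130308594 plus strand: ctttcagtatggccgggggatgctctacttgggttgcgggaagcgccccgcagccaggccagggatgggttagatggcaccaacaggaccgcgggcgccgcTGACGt
Fabp7 chr10:57784673-57784880 plus strand: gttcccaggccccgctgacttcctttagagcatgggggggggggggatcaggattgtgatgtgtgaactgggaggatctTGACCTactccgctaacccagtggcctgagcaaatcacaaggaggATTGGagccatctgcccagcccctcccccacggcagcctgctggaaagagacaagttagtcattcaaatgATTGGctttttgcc
Plin2 chr4:86670061-86670309 minus strand: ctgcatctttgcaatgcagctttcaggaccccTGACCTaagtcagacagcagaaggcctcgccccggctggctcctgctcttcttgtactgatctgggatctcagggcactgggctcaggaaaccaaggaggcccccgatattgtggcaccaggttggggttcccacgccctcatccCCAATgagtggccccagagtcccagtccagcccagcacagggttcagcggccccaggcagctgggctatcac
The motifs were searched on both strands in the 250 bases before each start. The capitals in Fabp3 are the core of the cyclic AMP response element (TGACG), 149 bases before the RefSeq start, which 17.8% of all 32817 windows of that length hold. Fabp7 and Plin2 each hold a single nuclear receptor motif (AGGTCA, found on the minus strand as TGACCT; 14.03% of windows), 171 and 218 bases before their starts. The CCAAT box (33.8% of windows) occurs at 2 places in Fabp7 and 1 in Plin2. The Plin3 window has 3 GC boxes (GGGCGG; 32.7% of windows), of which the 2 nearest to the start overlap by 1 base, and a CCAAT box. In none of the 4 windows was there an E-box (CACGTG; 6.02%), a TATA box (TATAAA; 12.4%) or a direct repeat of the nuclear receptor motif with 1 base between (0.0335%). A match is a run of letters and not a shown binding site.

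All positions are in GRCm38 with the GENCODE M21 annotation. Fabp3 (ENSMUSG00000028773.8) lies on the plus strand of chromosome 4 at 130308595 to 130315463, and its main transcript has 4 exons. The other two carriers also have 4 exons: Fabp5 (ENSMUSG00000027533.10) is on the plus strand of chromosome 3 at 10012548 to 10016607, and Fabp7 (ENSMUSG00000019874.11) on the plus strand of chromosome 10 at 57784881 to 57788450. Plin2 (ENSMUSG00000028494.12) is on the minus strand of chromosome 4 at 86648386 to 86670060, and Plin3 (ENSMUSG00000024197.10) on the minus strand of chromosome 17 at 56277476 to 56292873, with 8 exons each. Cidea (ENSMUSG00000024526.9) has 5 exons on the plus strand of chromosome 18 at 67343604 to 67367785. Lpl (ENSMUSG00000015568.16) has 10 exons on the plus strand of chromosome 8 at 68880491 to 68907448. Counts of a 3' assay come mostly from the last exon, which in all 7 genes holds the 3' untranslated region or its end. The last 300 bases of each main transcript had no match to another gene's transcript at 90% identity over 150 bases or more. Fabp3 overlaps Zcchc17 and Gm10570 and Cidea overlaps B430212C06Rik, each on the opposite strand, and the labels do not say whether the counting used strand.

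The libraries held 5419 wt and 4509 GlaKO cells after removal of called doublets, at a median of 5059 and 6079 UMIs per cell, and shared 6 barcodes. Classes were named from marker lists, with "-like" understood, and 7 classes had the 100 cells per library needed for a comparison. Choroid plexus epithelium, which makes the cerebrospinal fluid, accounted for 2608 wt cells (48.1%) and 802 GlaKO cells (17.8%), at a median of 5866.5 and 8611.5 UMIs. Its own markers were present (14 of 15 listed in both files, 19015 and 17222 CPM summed, where CPM is UMIs scaled to a class total of 1000000), while Ttr was not listed in both. Gla had 396 wt and 219 GlaKO UMIs over all cells (log2 ratio -0.74, -0.99 to -0.50). In choroid plexus epithelium it had 232 and 40 UMIs (-1.24, -1.76 to -0.75). As the sequenced 3' end may not be the disrupted region, these values do not check the genotype. Because the class shares differ this much, ratios over all cells are not read as changes in level: Fabp3 over all cells was at -2.01 and Fabp5 at 0.79.

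Each gene had its own cell classes, and the class with the highest level among those compared was the same in both libraries for every gene except Cidea. Fabp3 was highest in choroid plexus epithelium, at 229 CPM (222 to 236) in wt and 92.0 CPM (85.2 to 99.2) in GlaKO, and next in neurons, at 82.9 and 81.4 CPM. In the GlaKO library the intervals of these 2 classes overlapped. Oligodendrocyte precursors followed at 24.6 and 24.9 CPM, and the other classes compared stayed between 0.846 and 6.82 CPM. Of the classes too small to compare, the 101 wt endothelial cells were at 52.75 CPM (31.8 to 82.4) from 19 UMIs. The 34 wt border macrophages were at 23.1 CPM from 5 UMIs. In GlaKO the 35 endothelial cells and 47 border macrophages had 0 UMIs of Fabp3 (up to 26.06 and 12.2 CPM). Among neurons, cluster 16, led by Snhg11, Resp18 and Stmn2 and holding the excitatory markers Neurod6 and Slc17a6, had the most Fabp3 (189 CPM in wt, 186 in GlaKO), against 69.4 and 49.3 CPM in cluster 11 (led by Grin2b and Ano3) and 47.0 and 38.0 CPM in cluster 9 (led by Reln, the marker of Cajal-Retzius cells). Fabp3 had at least 1 UMI in 52.3% of the 44 wt and 54.3% of the 94 GlaKO cells of cluster 16.

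Fabp5 was a gene of astrocytes and oligodendrocytes. Astrocytes were at 756.5 CPM in wt (710 to 805) and 688.7 CPM in GlaKO (649.5 to 730), and oligodendrocytes at 598 CPM (577 to 620) and 603 CPM (587 to 619), so that astrocytes ranked first in both libraries without overlap of the intervals. A UMI was found in 81.2 and 82.2% of oligodendrocytes. Neurons (161 and 154 CPM) and precursors (149 and 164 CPM) came next, with overlapping intervals in each library. Within neurons, the Reln cluster was highest at 572 CPM in wt (483 to 673) and 387 CPM in GlaKO (319 to 466). These came from 146 UMIs in 65 cells and 112 UMIs in 60 cells. The fibroblast marker Dcn was also among the leading genes of this cluster. With finer clustering (Leiden resolution 2.0), a cluster of 9 wt and 8 GlaKO cells led by Dcn, Mgp and Spp1 was left unnamed. The part of such cells in these levels was not tested. T cells (32.7 and 44.0 CPM) and microglia (29.5 and 28.1 CPM) were low, and choroid plexus cells lowest, at 11.6 and 18.8 CPM. Among the classes too small to compare, the 6 wt and 7 GlaKO ependymal cells were at 697 and 654 CPM from 27 and 41 UMIs.

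Fabp7 was highest in oligodendrocyte precursors, at 885 CPM (836 to 936) in wt and 911 CPM (869 to 953) in GlaKO, and second in astrocytes, at 427 CPM (392.5 to 464) and 420 CPM (389 to 452). No other class compared was above 14.6 CPM. The precursors fell into clusters that differed in Fabp7: cluster 12, led by Lhfpl3, C1ql1 and Gpr17, had 1234 CPM in wt and 1188 CPM in GlaKO, and cluster 7, led by Cspg4 and Brinp3, had 431 and 363 CPM. Fabp5 followed the same order in these clusters, with 183 and 204 CPM in cluster 12 and 105 and 84.4 CPM in cluster 7. The median UMI count was also higher in cluster 12 (7051 and 8026) than in cluster 7 (2149 and 2227), and its part in the difference was not tested.

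Among the droplet coats, Plin3 was highest in oligodendrocytes, at 182 CPM (170 to 194) in wt and 185 CPM (177 to 194) in GlaKO. Of the classes compared, choroid plexus epithelium followed at 139.5 and 142.8 CPM and astrocytes at 62.0 and 65.99 CPM. Among smaller classes, 101 wt and 35 GlaKO endothelial cells were at 108 CPM (77.0 to 148) and 113 CPM (64.6 to 184). Pericytes were at 111 and 89.75 CPM from 12 and 4 UMIs, and ependymal cells at 129 and 63.8 CPM from 5 and 4 UMIs. The oligodendrocyte clusters differed in Plin3: cluster 1, led by Klk6, Enpp6 and Apod, had 353 CPM in wt and 326 CPM in GlaKO, against 114 and 110 CPM in cluster 0, led by Mal and Opalin. Plin2 was nearly level over choroid plexus epithelium (36.5 and 40.3 CPM), microglia (32.8 and 31.9 CPM), precursors (31.9 and 32.3 CPM), astrocytes (24.9 and 21.0 CPM) and T cells (24.6 and 18.6 CPM). The wt intervals of these classes all overlapped, and in GlaKO choroid plexus (35.9 to 45.2 CPM) lay above astrocytes (14.6 to 29.2 CPM) and T cells (11.7 to 28.2 CPM). Neurons (5.12 and 5.42 CPM) and oligodendrocytes (3.65 and 4.21 CPM) had the least. The border macrophages, 34 wt and 47 GlaKO cells, were highest in Plin2, at 185 CPM (132 to 251.5) and 248 CPM (195 to 311). Pericytes, 33 wt and 14 GlaKO cells, were at 175 CPM (105.5 to 273.6) and 89.75 CPM (24.45 to 229.8), with intervals that overlapped those of border macrophages.

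Cidea levels were highest in neurons, choroid plexus epithelium and ependymal cells. Neurons held 30.2 CPM (23.0 to 39.0) in wt and 24.2 CPM (18.8 to 30.8) in GlaKO, with a UMI in 12.5 and 12.7% of cells. The Reln cluster was low in both libraries, with a UMI in 2 of 65 wt cells (0.375 to 10.7%) and 0 of 60 GlaKO cells (up to 5.96%). Choroid plexus epithelium held 9.97 CPM in wt and 54.8 CPM in GlaKO, so it ranked below neurons in wt and above them in GlaKO. Ependymal cells, which line the ventricles beside the choroid plexus, had a UMI in 3 of 6 wt and 6 of 7 GlaKO cells (77.5 and 128 CPM from 3 and 8 UMIs). All other classes compared were between 0 and 1.51 CPM. The adipocyte markers Adipoq, Cfd, Retn and Adig were not listed in both files.

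Among the classes compared, Lpl was highest in microglia, with 88.5 CPM in wt and 26.7 CPM in GlaKO, and next in neurons, with 18.4 and 11.2 CPM. The shares of cells with a UMI were alike, at 6.95 and 5.66% of microglia and 6.63 and 6.24% of neurons. In microglia 2 wt and 6 GlaKO cells held 50% of the Lpl UMIs. In astrocytes 0 of 394 wt and 0 of 432 GlaKO cells had a UMI, which allows a share of cells with a UMI of up to 0.761 and 0.694% (3 cells of the total, counting error only), at a median of 2978 and 3322.5 UMIs per cell. Choroid plexus epithelium had 6 and 2 UMIs in all.

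**Figure D1:**
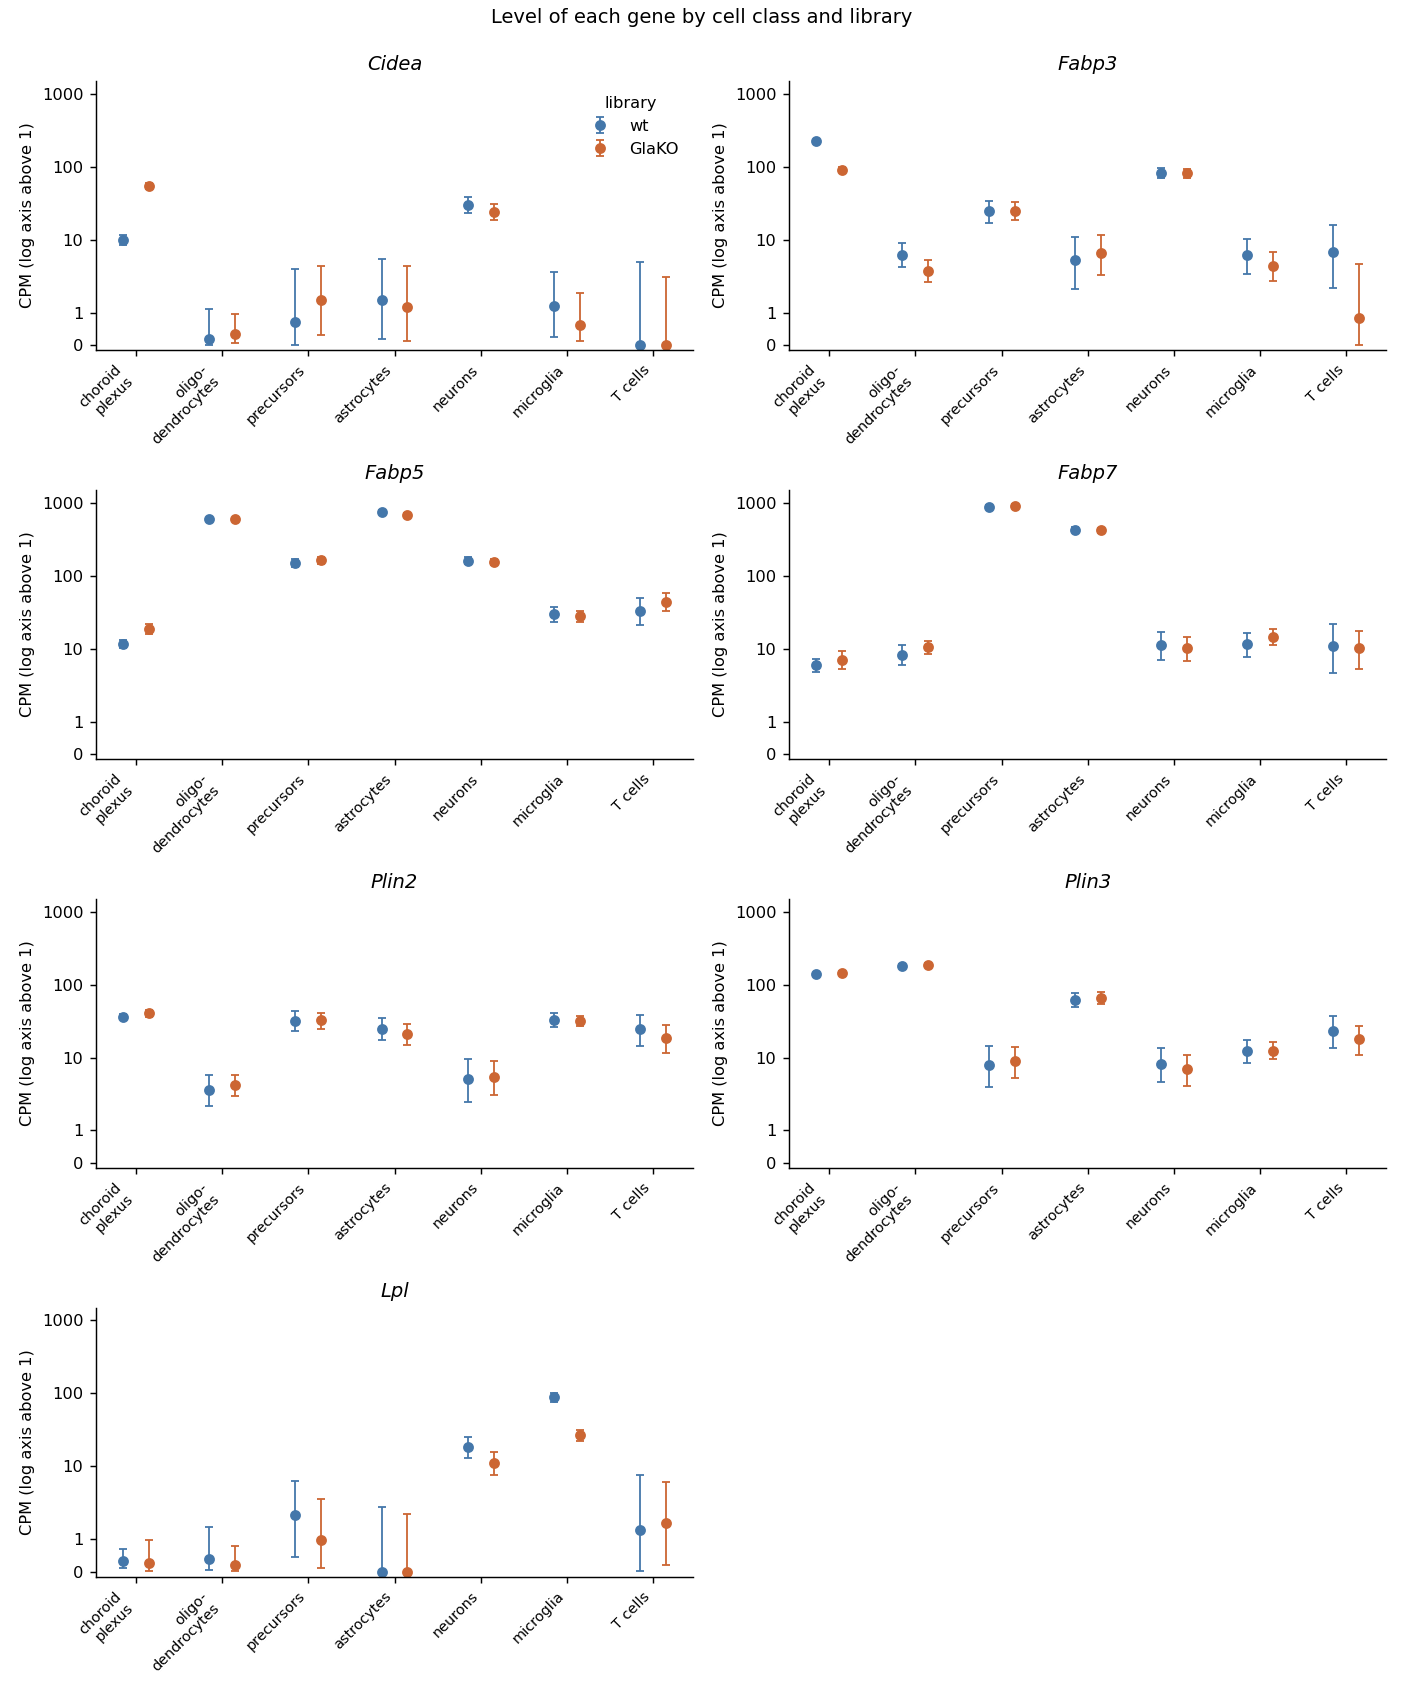
Level of each of the 7 genes (CPM of summed UMIs, log axis above 1) in the 7 classes compared, wt in blue and GlaKO in orange, with exact Poisson 95% intervals. Points of both libraries lie together in most classes, and stand apart for Cidea and Fabp3 in choroid plexus (9.97 against 54.8 CPM, and 229 against 92.0 CPM) and for Lpl in microglia (88.5 against 26.7 CPM).

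A gene was compared between the genotypes in a class where both libraries together held at least 100 of its UMIs. In choroid plexus epithelium 6 of the 7 genes met this, and at a threshold of 1.5-fold 2 were higher in GlaKO (Cidea and Fabp5) and 1 was lower (Fabp3). Of all 9436 genes compared there, 5.15% were higher and 2.64% lower by that much. The 7 genes were chosen with these ratios known, so nothing is read from that count. Their median log2 ratio was 0.20, beside 0.06 over all genes compared. In oligodendrocytes, astrocytes, neurons and precursors, 3 of the 7 genes each were compared and none reached 1.5-fold, where all genes gave 1.67% higher and 1.21% lower in oligodendrocytes, 2.4% and 1.23% in astrocytes, 2.39% and 1.59% in neurons, and 2.09% and 1.31% in precursors. In microglia 1 of 3 was lower (Lpl), beside 2.27% higher and 1.46% lower of all genes. No member had 100 UMIs in T cells.

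**Figure D2:**
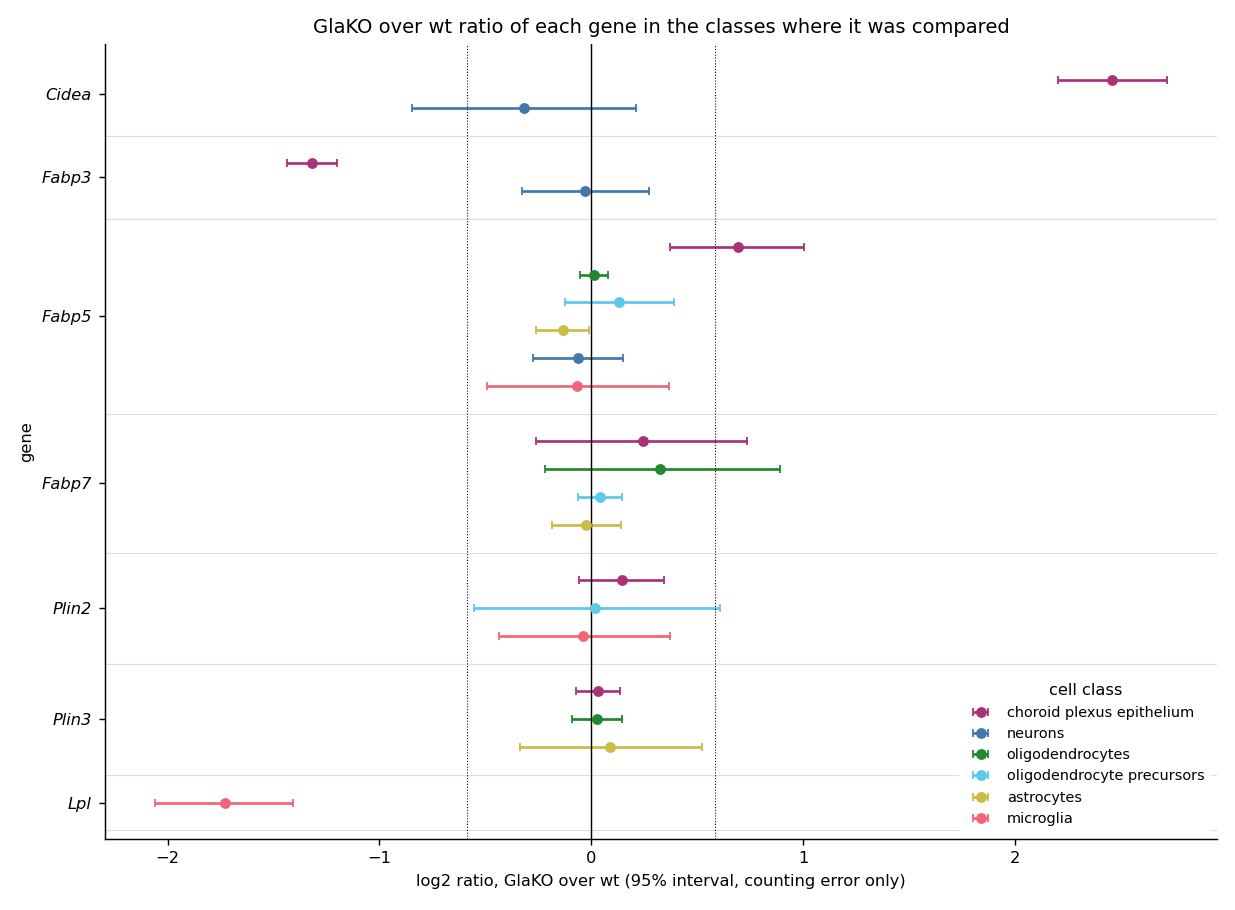
log2 ratio of GlaKO over wt for each gene in each class where it was compared, with exact conditional 95% intervals for counting error; dotted lines mark 1.5-fold. Cidea (2.46) and Fabp3 (-1.32) in choroid plexus and Lpl (-1.73) in microglia lie far from 0, and in neurons the intervals of Cidea (-0.32) and Fabp3 (-0.03) span it.

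Cidea was 5.49-fold higher in choroid plexus cells of the GlaKO library. It had 182 UMIs in 143 of 2608 wt cells and 406 UMIs in 239 of 802 GlaKO cells, a log2 ratio of 2.46 (2.20 to 2.72). A UMI was found in 5.48% of wt cells (4.64 to 6.43%) and 29.8% of GlaKO cells (26.7 to 33.1%). As a background for such shares, oligodendrocytes had one in 0.118 and 0.224% of cells at a median of 5819 and 6706 UMIs. With each cell thinned to 1000 UMIs, which kept every choroid plexus cell, the shares were 0.997 and 5.74%. Both the share of cells and the UMIs per cell with one were higher in GlaKO (1.27 in wt, 1.70 in GlaKO), and no cell held more than 9 UMIs. The 52 wt cells and 65 GlaKO cells richest in Cidea held 50% of its UMIs, which is 1.99 and 8.11% of the class.

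Fabp3 went the other way and was 2.49-fold lower in GlaKO. It had 4183 UMIs in wt and 682 in GlaKO, at a log2 ratio of -1.32 (-1.44 to -1.20). A UMI was found in 48.9% of wt cells (47.0 to 50.8%) and 30.2% of GlaKO cells (27.0 to 33.5%), where oligodendrocytes had one in 3.53 and 2.54%. After thinning to 1000 UMIs the shares were 16.7 and 7.73%. Cells with Fabp3 held 3.28 UMIs in wt and 2.82 in GlaKO on average, and cells with 5 or more were 11.0% of the class in wt and 4.36% in GlaKO. In neurons both counting intervals included 0: Cidea was at -0.32 (-0.85 to 0.21) and Fabp3 at -0.03 (-0.33 to 0.27). With neurons thinned to 1000 UMIs, Fabp3 was at -0.54, outside that interval. By neuron cluster, Fabp3 was at 69.4 CPM in wt and 49.3 CPM in GlaKO in cluster 11, and at 47.0 and 38.0 CPM in cluster 9. Cluster 16, at 189 and 186 CPM, held 44 of 392 wt and 94 of 433 GlaKO neurons. The intervals of the libraries overlapped in each cluster (56.4 to 84.4 and 39.6 to 60.7 CPM in cluster 11), which does not show that the levels were equal. No ratio interval was taken by neuron cluster, and the part of the cluster mix in the neuron ratio was not tested. Zcchc17, the gene that overlaps the end of Fabp3 on the other strand, was at 79.0 and 89.8 CPM in choroid plexus cells (log2 ratio 0.18, 0.05 to 0.32).

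Both ratios kept their sign when choroid plexus cells were split by UMI depth or by cluster. Over 5 depth parts of equal size, the share of cells with Cidea ran from 4.37 to 6.71% in wt and from 15.9 to 35.7% in GlaKO, and the log2 ratio from 1.77 to 2.99. The share with Fabp3 was 31.2% in the shallowest and 71.8% in the deepest wt part and ran from 11.0 to 35.7% in GlaKO, with log2 ratios between -1.64 and -1.21. In the deepest part, at a median of 13561 wt and 13943 GlaKO UMIs, 440 wt cells had Cidea in 6.59% and Fabp3 in 71.8%, and 242 GlaKO cells in 33.5% and 34.3%. Of the 4 choroid plexus clusters with cells of both libraries, Cidea was most different in cluster 3 (7.18 and 67.5 CPM, log2 ratio 3.23) and least in cluster 6 (11.0 and 35.0 CPM, 1.67), and Fabp3 was most different in cluster 6 (266 and 62.1 CPM, -2.10) and least in cluster 3 (216 and 104 CPM, -1.05). Clusters 2 and 5 lay between (Cidea 2.43 and 2.17, Fabp3 -1.38 and -1.32). A further cluster of 16 cells, all wt, is part of the class.

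**Figure D3:**
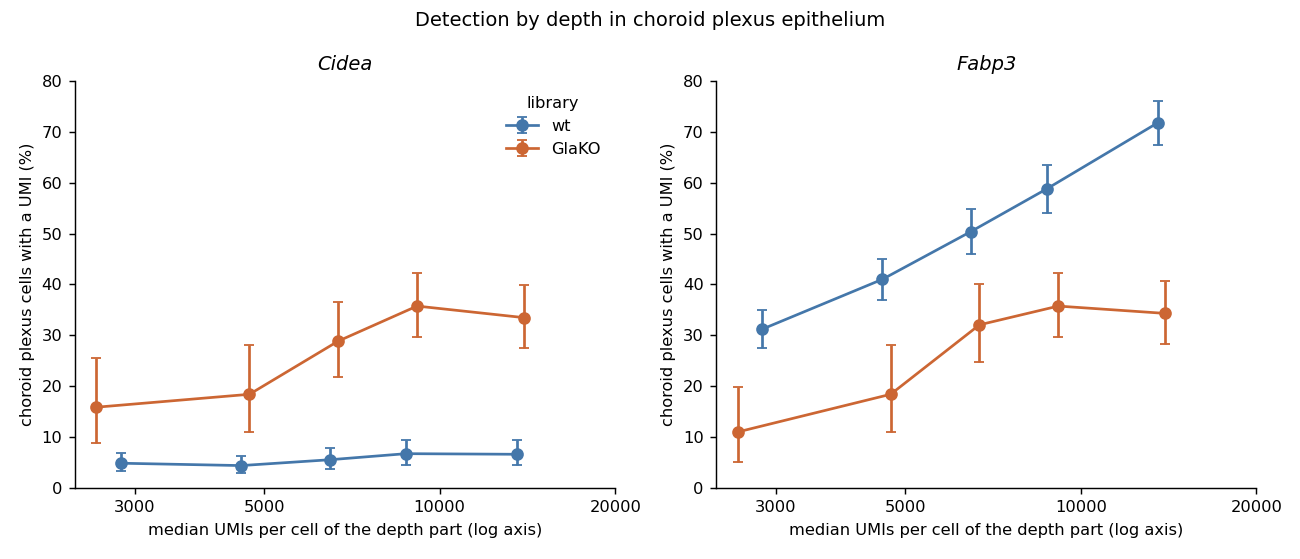
Share of choroid plexus cells with a UMI of Cidea (left) and Fabp3 (right) against the median UMIs per cell (log axis) of 5 depth parts, wt in blue and GlaKO in orange, with exact Clopper-Pearson 95% intervals. GlaKO lies above wt for Cidea in each part (15.9 to 35.7% against 4.37 to 6.71%) and below it for Fabp3.

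Other measures of this class were taken, some of which also differed between the libraries, and their part in these ratios was not tested. Mitochondrially encoded genes took 2.47% of the UMIs in wt and 1.56% in GlaKO. The 11 oligodendrocyte markers, all detected, summed to 272 and 501 CPM in choroid plexus cells (single markers 3.45 to 76.8 and 9.31 to 177 CPM), the 9 astrocyte markers to 305.5 and 282 CPM and the 9 microglial markers to 111 and 115 CPM. The log2 ratio of the microglial sum was 0.06, with an interval (-0.06 to 0.17) that included 0. Of 5 ependymal markers, which sum to 445.5 and 539.9 CPM, Tmem212 had 0 UMIs in GlaKO, and the lowest of the 5 in wt was at only 0.164 CPM. The 4 pericyte markers listed in both files summed to 60.4 and 23.6 CPM, nearly all of it Vtn (57.8 and 22.3 CPM).

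Within each library, each of Cidea and Fabp3 was found in a smaller share of choroid plexus cells with the other gene than without it. In wt, 3.29% of the 1275 cells with Fabp3 also had Cidea (2.38 to 4.43%), against 7.58% of the 1333 cells without (6.21 to 9.13%). In GlaKO the shares were 20.3% of 242 cells (15.4 to 25.9%) and 33.9% of 560 cells (30.01 to 38.0%). Seen from the other side, Fabp3 was found in 29.4% of the 143 wt cells with Cidea and 50.0% of the 2465 without. In GlaKO it was found in 20.5% of 239 and 34.3% of 563 cells. Cells with Fabp3 and no Cidea were deeper than cells with neither gene, at a median of 7151 against 4880 UMIs in wt and 9077 against 7592 in GlaKO. Cells with Fabp3 and no Cidea were 47.3% of the class in wt and 24.1% in GlaKO, cells with Cidea and no Fabp3 3.87 and 23.7%, cells with both 1.61 and 6.11%, and cells with neither 47.2 and 46.1%. The difference between the libraries was present in each kind of cell: Cidea was at 1.98 (1.69 to 2.29) among cells without Fabp3 and 2.68 (2.14 to 3.22) among cells with it, and Fabp3 at -1.07 (-1.20 to -0.95) among cells without Cidea and -1.25 (-1.62 to -0.88) among cells with it.

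The 2 kinds of cell differed in other genes in both libraries. Genes needed at least 100 wt and 20 GlaKO UMIs in these cells, and a UMI in each kind of cell in each library (7321 genes). Cells with Cidea alone were set against cells with Fabp3 alone within each library. The 10 genes furthest apart on each side in both libraries were taken. Genes with 0 UMIs in a kind of cell, such as Dmrta2 in GlaKO cells with Cidea alone, were thereby left out. These genes were chosen after their values were seen, without a test. On the Cidea side were Dlk1, a membrane and secreted protein of the Notch family that restrains fat cell formation, Wfikkn2, a secreted binder of growth and differentiation factors, Tbc1d1, a Rab GTPase activator, and the small GTPase Rab38, with Tlx2, Cthrc1, Dact1, Ptpn13, Hspa1b and Plagl1. Dlk1 was at 175 CPM in wt Cidea cells and 0.497 CPM in wt Fabp3 cells, and at 296 and 14.7 CPM in the GlaKO ones. Tbc1d1 was at 89.8 and 6.37 CPM in wt and 73.2 and 12.6 CPM in GlaKO.

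On the Fabp3 side were Nefh, a neurofilament subunit, Vtn, the adhesive protein vitronectin, Cdk1, the mitotic kinase, and Mecom and Nr2f2, which are transcription factors, with Mansc1, Socs2, Ly6e, Sfn and Pygl. Vtn was at 69.7 CPM in wt Fabp3 cells and 7.25 CPM in wt Cidea cells, and at 49.0 and 6.36 CPM in the GlaKO ones. Nefh was at 23.3 and 1.45 CPM in wt and 27.9 and 1.06 CPM in GlaKO. Over the whole class, 9 of the 10 genes on the Cidea side were higher in GlaKO, from 0.59 for Plagl1 to 4.09 for Dlk1, and Wfikkn2 was at -0.14. All 10 genes on the Fabp3 side were lower, from -1.38 for Vtn to -0.23 for Sfn, where the intervals of Sfn and Cdk1 (-0.34) included equal levels. These ratios and the choice of the genes come from the same cells, so the directions are given side by side and support nothing further.

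**Figure D4:**
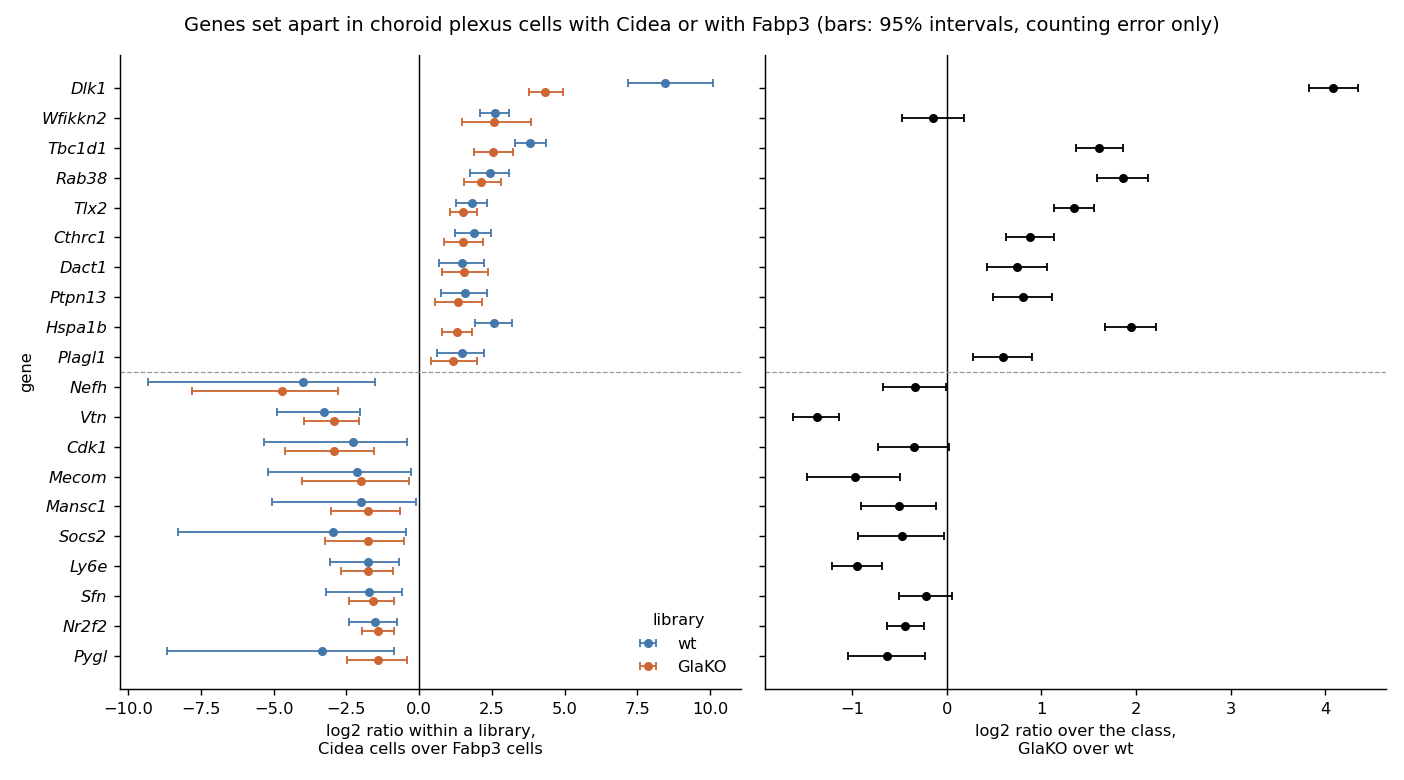
Left, log2 ratio of choroid plexus cells with Cidea alone over cells with Fabp3 alone within the wt (blue) and the GlaKO library (orange). Shown are the 10 genes furthest apart on each side, among genes with a UMI in both kinds of cell in both libraries. Right, GlaKO over wt ratio of the same genes over the whole class. Bars are exact conditional 95% intervals; 9 of 10 genes above the dashed line lie right of 0 on the right side, and 10 of 10 below it lie left.

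Of the transcription factors that pattern the developing forebrain, 8 were looked at in the same cells, also after values were seen; Nr2f2 is already among the genes of the Fabp3 side. Dmrta2 was at 33.0 CPM in wt cells with Fabp3 alone and 5.80 CPM in wt cells with Cidea alone, and at 40.01 and 0 CPM in GlaKO, and Emx2 at 6.56 and 1.45 CPM in wt and 7.90 and 0.53 CPM in GlaKO. Emx2 had only 67 wt and 16 GlaKO UMIs in these cells, and the interval of its wt log2 ratio (-7.50 to 0.35) included 0. Zic1 went the other way from Dmrta2 and Emx2, with 33.1 and 65.2 CPM in wt and 48.4 and 59.9 CPM in GlaKO. Its GlaKO interval (-0.10 to 0.72) included 0. Emx1 was at 34.8 and 21.7 CPM in wt and 34.7 and 26.0 CPM in GlaKO, with less distance between the cells. Zic4 was at 8.85 and 23.2 CPM in wt and 14.7 and 17.5 CPM in GlaKO, Otx1 at 6.56 and 10.1 and at 9.48 and 11.7 CPM, and Lmx1a at 16.9 and 21.7 and at 25.8 and 20.2 CPM. The intervals of Emx1, Otx1 and Lmx1a included 0 in both libraries, and that of Zic4 did in GlaKO (-0.52 to 1.03). Over the class, Dmrta2 was at -0.78, Emx2 at -0.45, Zic1 at 0.54, Zic4 at 0.69, Otx1 at 0.74, Lmx1a at 0.44 and Emx1 at 0.12. The class intervals of Emx2 and Emx1 included 0. Which ventricle the choroid plexus cells of a library came from is not given in the labels, and the part of any such difference in the ratios of Cidea and Fabp3 was not tested.

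The other 4 genes differed less in choroid plexus cells. Fabp5 was higher in GlaKO, with 212 wt and 139 GlaKO UMIs, 11.6 and 18.8 CPM, and a log2 ratio of 0.69 (0.37 to 1.01). It had a UMI in 7.44 and 14.1% of cells (1.69 and 2.74% after thinning). These levels were 1.94 and 3.11% of the oligodendrocyte level and 1.54 and 2.72% of the astrocyte level of the same library, where the summed oligodendrocyte markers in choroid plexus cells were 0.437 and 0.861% of their level in oligodendrocytes (single markers 0.228 to 1.23% and 0.586 to 1.58%). Oligodendrocyte markers were higher in GlaKO choroid plexus cells by 0.88 on the log2 scale, and their part in the ratio of Fabp5 was not tested. The ratio was 1.56 in cluster 2 and 0.11 (-0.79 to 0.95) in cluster 6, and it fell short of 1.5-fold when no doublets were removed (0.55) or when the 4% of barcodes with the highest doublet scores were (0.57). Fabp7, from 108 and 52 UMIs, was at 0.25 (-0.26 to 0.74), at 0.668 and 0.77% of its precursor level, inside the range of the single precursor markers (0.0906 to 0.753% in wt, 0.275 to 0.749% in GlaKO) in wt and just above it in GlaKO. Its ratio was -0.08 after thinning and 0.88, past 1.5-fold, when cells were weighted equally over 5 parts of depth. The part of precursor RNA in these UMIs was not tested.

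The counting intervals of the coats Plin2 and Plin3 included 0 in choroid plexus cells. Plin2 had 666 and 299 UMIs, 36.5 and 40.3 CPM, at 0.14 (-0.06 to 0.34), and Plin3 had 2548 and 1059 UMIs, 139.5 and 142.8 CPM, at 0.03 (-0.07 to 0.14). Thinned to 1000 UMIs, they were at 0.50 and 0.23. In wt, cells with Cidea alone had 46.4 CPM of Plin2 and 157 CPM of Plin3, and cells with Fabp3 alone 37.5 and 139 CPM; in GlaKO the values were 45.6 and 155 CPM against 29.0 and 136 CPM. Outside the choroid plexus the ratios of the carriers and coats that could be compared ran from -0.14 to 0.32. The highest was Fabp7 in oligodendrocytes, with 41 and 94 UMIs, at 0.32 (-0.22 to 0.89; 0.28 to 0.50 in the alternatives). Fabp5 in oligodendrocytes was at 0.01 (-0.05 to 0.08), Fabp7 in precursors at 0.04 (-0.06 to 0.15) and in astrocytes at -0.02 (-0.19 to 0.14), and Plin3 in oligodendrocytes at 0.03 (-0.09 to 0.15). Fabp5 in astrocytes was at -0.14 (-0.26 to -0.01). After thinning, Fabp5 in neurons went from -0.06 to -0.56, Plin2 in microglia from -0.04 to 0.56 and Plin2 in precursors from 0.02 to -0.59, and equal cluster weights took Fabp5 in microglia from -0.07 to -0.59.

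Lpl in microglia was lower in GlaKO on the sum, but 1 cell carried much of it. The wt library had 216 UMIs in 31 of 446 microglia and the GlaKO library 126 UMIs in 41 of 724, a log2 ratio of -1.73 (-2.06 to -1.41). The shares of cells with a UMI, 6.95% (4.77 to 9.72%) and 5.66% (4.09 to 7.60%), overlapped in their intervals. A single wt cell with 21436 UMIs in total held 95 of the Lpl UMIs (44.0%), and the richest GlaKO cell held 16 (12.7%). Without these 2 cells the ratio was -1.10. That wt cell had no UMI of Spp1, a secreted protein often listed with Lpl among genes of reactive microglia, nor of Fabp5 or Plin2. Cells with 5 or more Lpl UMIs numbered 5 in wt and 8 in GlaKO. In neurons Lpl had 36 and 31 UMIs, too few to be compared, at 18.4 and 11.2 CPM.

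The wider lipid pathway was described from lists of genes around droplets, lipases and fatty acid use. Of 86 further genes in 8 lists, 69 were listed in both files, and the carriers Fabp1, Fabp2, Fabp4, Fabp6, Fabp12 and Pmp2 were not. In choroid plexus epithelium 61 were compared, of which 1 was at least 1.5-fold higher and 4 lower, with a median log2 ratio of 0.02, beside 5.15% and 2.64% of all genes and a median of 0.06. The counts changed with the weighting of cells. They were 4 higher and 1 lower with equal cluster weights, 5 higher and 2 lower over depth parts, and 0 higher and 2 lower after thinning. The shares over all genes in these settings are not given here, so the change is not read as one of these lists. The higher one was Scd1, a fatty acid desaturase, at 14.6 and 23.5 CPM (0.68, 0.40 to 0.96). Among the lower ones were the lipoprotein genes Apoe (7146 and 4156 CPM, -0.78) and Apoc1 (113 and 68.2 CPM, -0.73, with 14.03% of the GlaKO UMIs in 1 cell), and Cpt1c, a brain form of carnitine palmitoyltransferase (12.8 and 8.09 CPM, -0.66).

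By list in this epithelium, fatty acid synthesis and desaturation had all 8 compared genes above 0 (median 0.13). Over all 9436 genes compared there the median was 0.06, so more genes lay above 0 than below. Lipase handling and uptake had 7 of 8 below 0 (median -0.41, 3 past 1.5-fold). Only Sel1l, a chaperone of lipase maturation, was above, at 0.30. The other lists were mixed. Droplet assembly, with 7 of 11 above 0 (median 0.15), ran from Soat1, which makes cholesterol esters, at -0.25 to Fitm2, which buds droplets from the endoplasmic reticulum, at 0.44. Lipolysis, 3 of 5 above (0.04), ran from the lysosomal lipase Lipa at -0.31 to Abhd5, the activator of triglyceride lipase, at 0.10. Activation and oxidation, 6 of 16 above (-0.10), had Acsl4, an acyl-CoA ligase, at 0.37 as its highest gene. Regulators and thermogenic genes, 8 of 11 above (0.07), ran from Rxra at -0.28 to Ppargc1a, the coactivator of mitochondrial genes, at 0.25. The droplet relatives of the described genes, Plin4 and Cideb, were at -0.11 and -0.44.

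In the other classes, genes of the lists past 1.5-fold were 0 higher and 1 lower of 52 in oligodendrocytes, 3 and 0 of 40 in microglia, 1 and 1 of 46 in astrocytes, 1 and 1 of 37 in neurons, 2 and 0 of 43 in precursors, and 1 and 1 of 13 in T cells. Over all genes compared, 1.67% were higher and 1.21% lower in oligodendrocytes, 2.27 and 1.46% in microglia, and 2.4 and 1.23% in astrocytes. In neurons these shares were 2.39 and 1.59%, and in precursors 2.09 and 1.31%. Nothing is read from these few list genes as a set. The desaturase Scd2 was higher in GlaKO in microglia (0.60, 70.4 and 107 CPM), neurons (0.62, 140 and 216 CPM) and T cells (1.25, 49.1 and 117 CPM). Microglia also had more Acsl3 (0.84), another acyl-CoA ligase, and Elovl5 (0.72), a fatty acid elongase. Lower were the mitochondrial carrier Ucp2 in oligodendrocytes (-1.30, 14.2 and 5.75 CPM) and Lpin2, a phosphatidate phosphatase, in astrocytes (-0.87). Its relative Lpin1 (0.80) and the lipase maturation factor Lmf1 (1.19, 21.7 and 49.7 CPM) were higher in precursors. Nr1h2, an oxysterol receptor, was at 0.60 in astrocytes and -0.82 in neurons. Hilpda, an inhibitor of droplet lipolysis, was at -1.26 in T cells, where 1 wt cell held 47.9% of the UMIs. Among all genes compared in T cells, 6.13% were higher and 1.59% lower.

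The genes most like each member over classes were found by Pearson's r of log2(CPM + 1) over 14 points, which are 7 classes in 2 libraries that share each library's depth and cell preparation, among 8242 genes. Fabp7 was followed most closely by Scrg1 (0.99), Fzd9 (0.99) and Bcan (0.99), and Fabp5 by Igsf11 (0.99), 4930402H24Rik (0.99) and Tspan15 (0.97). For Fabp3 they were Pcbp3 (0.97), Pcp4 (0.97) and Bbs5 (0.96), for Plin2 Suclg2 (0.96), Tnfrsf1a (0.90) and Ppp1r14b (0.88), and for Plin3 Hist1h4h (0.94), 1190005I06Rik (0.94) and Car2 (0.94). Cidea was most like Atp6v1d (0.95), Ube2k (0.95) and Ankrd45 (0.94), and Lpl like Ppfia4 (0.96), Tbpl1 (0.96) and Spp1 (0.95). These values describe 14 points and carry no test.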

How the data were processed

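Droplet 3' single-cell RNA sequencing of hippocampal cells was deposited by the authors as raw counts of UMIs per gene and barcode, 1 library per genotype (31929688 UMIs in wt, 29914106 in GlaKO), and the counts were used as deposited. Per the submitters' processing notes Cell Ranger 6.0.1, R 4.1.3 and Seurat 4 were used with build mm10. For the annotation and the filters, the sources used here give nothing. Per the labels' protocols the hippocampi were dissociated with enzymes, cleared of debris and sorted with 7-AAD.

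Scrublet in scanpy 1.11.5 called 24 wt doublets (0.441%) and 63 GlaKO doublets (1.38%), which were removed; too few in wt to say that the caller worked there. Cells of both libraries were clustered together (2000 variable genes, 30 principal components, 15 neighbours, Leiden resolution 1.0) without the genes described and the other lipid genes. A cluster was named where at least 3 markers of a type were detected in 10% of cells at a mean log2 fold of 1.0 or more. Cluster 11 of the neurons had no marker among its 10 leading genes. UMIs were summed per class, at least 100 cells per library and 100 UMIs per gene, and ratios of sums scaled to the class total have exact conditional intervals. Intervals take UMIs as independent, so a gene held by few cells has a wider true error. The interval code was tested on simulated data. Genes named beyond the members were the 3 most alike by r (at least 50 CPM in 1 point), the highest and lowest of each list in choroid plexus and those past 1.5-fold; 1 gene of the lists that the rule names is not reported here. The members and lists were chosen with earlier results of these data known.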

Additional observations from a re-analysis of the deposited data

Results flagged for a closer look

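The ratio of Fabp5 was on opposite sides in different classes: 0.69 (0.37 to 1.01) in choroid plexus epithelium, higher in GlaKO, and -0.14 (-0.26 to -0.01) in astrocytes, lower in GlaKO, with both counting intervals on one side of 0. It is listed because 2 classes went opposite ways under the same contrast. With 1 library per genotype the difference between the classes was not tested.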

How the results depend on the processing

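Under 12 alternative settings each, the 21 ratios of members gave 252 values, of which 231 moved by less than their counting interval, 21 moved further and 0 changed sign where the gene was past 1.5-fold; ratios nearer to 0 changed sign in some settings. Cidea in choroid plexus ranged from 2.37 to 2.51. Thinning cells to 1000 UMIs gave Fabp3 -1.19, Plin2 0.50 and Plin3 0.23 in choroid plexus; equal weights for clusters gave Fabp3 -1.44; equal weights for 5 parts of depth gave Fabp5 1.03 and Fabp7 0.88. Plin2 in precursors (-0.59, thinned or over depth parts) and Fabp5 in microglia (-0.59, equal cluster weights) also passed 1.5-fold there, and Fabp5 in choroid plexus missed it at 0.55 with no doublets removed and at 0.57 with the top 4% removed. Lpl in microglia ranged from -1.88 to -1.10, the latter without the richest cell of each library. Lipid list genes at least 1.5-fold higher in choroid plexus, 1 as reported, were 0 after thinning, 4 with equal cluster weights, 5 over depth parts, 4 at a minimum of 20 UMIs and 0 at 500; those lower, 4 as reported, were 2, 1 and 2 in the first 3 of these settings and 2 at 500. The shares over all genes in these settings are not given here, and the cause was not tested. No paired analysis was possible because each genotype has 1 library, and no library could be left out. The depth limits Cidea and Lpl outside their main classes, and 1 library per genotype limits every ratio to a difference between libraries.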
